A study of Mus musculus with 15 samples.

Results

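Aminoacyl-tRNA synthetases were followed in group 2 innate lymphoid cells (ILC2s) of the mouse lung, tissue-resident lymphocytes that release type 2 cytokines, IL-13 among them, when epithelial cells send out the alarmin IL-33. The members were all genes whose symbol stands alone on an array feature and follows the naming pattern of these enzymes, and the feature with the highest mean over all arrays stood for a gene with several. The rule used no difference between groups, and it gave 34 genes of 22180, 18 cytosolic and 16 mitochondrial. Aars shared its feature with another gene and Dars had none under its symbol alone, and they were not analysed here. All 34 members passed the filter on dim features, for which a gene had to lie above percentile 40 of its array in at least 3 arrays.

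Total RNA of ILC2s was hybridised to 15 Affymetrix arrays in 5 groups of 3. Neonatal ILC2s came from mice 10 days old whose sex is not given; the labels call these cells naive. Effector ILC2s came from adult females and adult males (3 arrays each) that were given IL-33 intranasally for 3 days and whose lungs were taken 1 day after the last dose; their age is not given beyond adult. Naive adult ILC2s came from females and males 8 weeks old (3 arrays each). No adults dosed without IL-33 are among these groups, so the effect of the dosing itself and that of IL-33 cannot be told apart. The strain, the markers used to isolate the cells and the number of mice behind each array are not stated in the labels; these call the arrays of a group biological replicates.

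Each synthetase joins 1 amino acid to its tRNAs, and the charged tRNA then brings that amino acid to the ribosome. The cytosol and the mitochondrion use separate sets, both encoded in the nucleus; the symbols of the mitochondrial set end in 2. In the cytosol several synthetases sit together in the multi-synthetase complex on scaffold proteins, and the others lie outside it. Gars and Kars each make both the cytosolic and the mitochondrial enzyme for their amino acid, and Eprs is a single protein that charges tRNAs for glutamate and for proline. Several cytosolic synthetase genes are known targets of ATF4, the transcription factor of the amino acid response, which is raised mainly through translation when uncharged tRNA activates the kinase Gcn2.

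The values are log2 levels from the deposited table, and a gene was called where limma's moderated test, adjusted by the Benjamini-Hochberg method over 16257 genes, gave a p under 0.05. A difference of 1 on this scale is a 2-fold change. Array medians lay between 4.44 and 4.64, and all 6 effector arrays had medians below those of the other 9. The mean correlation of an array with its own group was 0.965 to 0.972 for effector arrays, but 0.909 to 0.920 for neonatal arrays and 0.912 to 0.950 for naive arrays. None of the 34 members lay within the range of sensory receptor genes, taken as features without expression here (the upper quartile of 1405 such features was 3.71 in neonates, 3.35 in effector and 4.07 in naive cells). All 12 ILC2 markers measured were above that range in every group, as were all 10 T cell and all 12 epithelial markers in neonates and effector adults, so this does not set the cells apart from others. Gata3, the lineage's transcription factor, differed by -0.11 between effector and naive adults without being called, and the cytokine gene Il13 was 3.07 higher. In effector against naive adults 4 of the 12 ILC2 markers were called higher and 1 lower, where 23.7% and 10.9% of all genes were. The summed linear level of the 12 was 11997 to 15312 in effector adults, 10751 to 11856 in naive adults and 10470 to 13564 in neonates.

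All 18 cytosolic synthetases rose in effector adults relative to naive adults, while 6 of the 16 mitochondrial ones rose, 1 fell and 9 were not called. The median log2 difference was 1.12 over the cytosolic set, with a range of 0.58 to 1.96, and 0.20 over the mitochondrial set, with a range of -0.42 to 1.05. Over all genes tested it was 0.03. Among these genes 23.7% were called higher and 10.9% lower, against 100% and 0% of the cytosolic set and 37.5% and 6.25% of the mitochondrial set. For 13 cytosolic members and 1 mitochondrial member the rise was at least 2-fold. The cells were measured in bulk, so a change in the share of a cell type and a change in RNA per cell cannot be told apart.

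**Figure D1:**
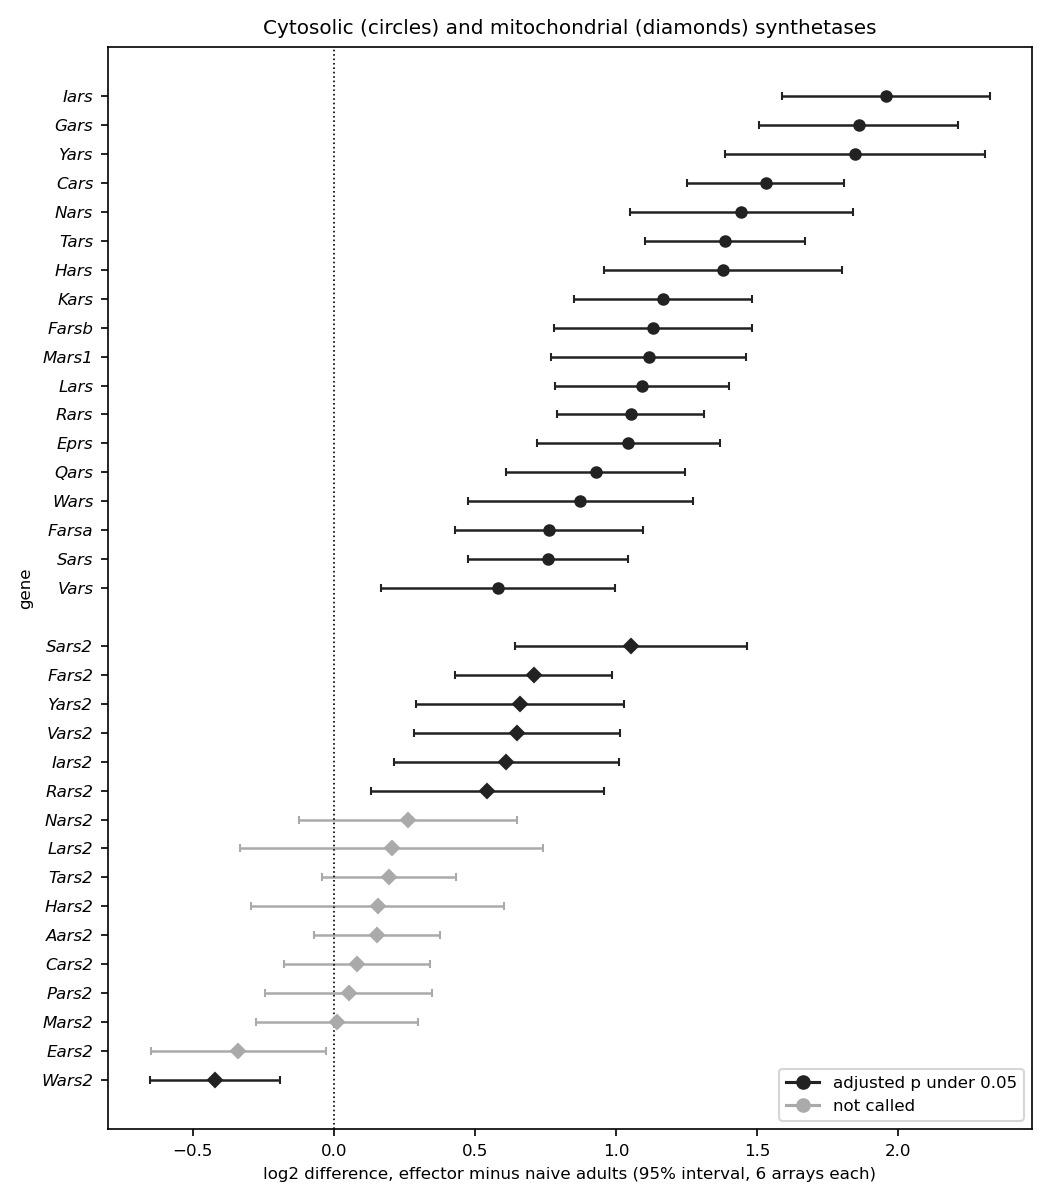
Log2 difference of each synthetase gene between effector and naive adults (x axis, effector minus naive), with its 95% interval from limma over 6 arrays each. Cytosolic members are circles and mitochondrial members diamonds; black marks adjusted p under 0.05 and grey genes not called. All 18 cytosolic genes lie between 0.58 and 1.96, and the mitochondrial genes between -0.42 and 1.05.

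Within the multi-synthetase complex all 7 measured enzymes were higher in effector cells, with a median difference of 1.09. Iars, which charges isoleucine tRNA, moved most of all members. Its lowest, median and highest log2 levels were 8.30, 8.35 and 8.41 in effector adults, against 5.41, 6.62 and 6.88 in naive adults. The effector arrays were almost level while the naive arrays were spread over more than 1 log2 unit, and the groups did not overlap (difference 1.96 ± 0.17 SE, 3.88-fold, adjusted p = 6.32e-07). Kars, the lysine enzyme, had 9.67, 9.89 and 10.02 in effector adults, against 8.26, 8.65 and 9.19 in naive adults. It too was higher on every effector array (1.17 ± 0.15, adjusted p = 2.74e-05).

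Eprs, the double enzyme for glutamate and proline, read 8.82, 9.10 and 9.11 in effector adults, against 7.79, 7.95 and 8.29 in naive adults. No naive array reached the lowest effector array (1.04 ± 0.15, adjusted p = 9.01e-05). Rars, the arginine enzyme, read 8.42, 8.60 and 8.74 in effector adults, against 7.14, 7.53 and 7.83 in naive adults. Here as well the groups were apart (1.05 ± 0.12, adjusted p = 1.21e-05). The other members of the complex rose by 1.12 (Mars1, methionine), 1.09 (Lars, leucine) and 0.93 (Qars, glutamine), and none of these overlapped between the groups. The scaffold proteins Eef1e1 and Aimp1, the 2 tested of 3, were higher as well, by 1.15 ± 0.24 and 0.50 ± 0.18 (adjusted p = 0.00182 and 0.0387).

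The 11 cytosolic members outside the complex all rose, with a median of 1.38. Gars, the glycine enzyme, had the largest difference of this group. It read 10.24, 10.53 and 10.72 in effector adults, against 8.02, 8.77 and 9.06 in naive adults, a gap of more than 1 log2 unit between the nearest arrays (1.86 ± 0.16, 3.63-fold, adjusted p = 6.60e-07). Yars, the tyrosine enzyme, read 6.92, 7.47 and 7.82 in effector adults, against 4.97, 5.55 and 6.20 in naive adults. Its arrays spread widely within both groups but did not meet (1.85 ± 0.22, adjusted p = 1.28e-05). Cars, the cysteine enzyme, read 7.04, 7.30 and 7.67 in effector adults, against 5.45, 5.80 and 6.21 in naive adults. Every effector array was above every naive array (1.53 ± 0.13, adjusted p = 4.32e-07).

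Nars, which charges asparagine tRNA, read 9.74, 9.87 and 10.27 in effector adults, against 7.70, 8.65 and 8.95 in naive adults. Tars, the threonine enzyme, read 8.50, 8.69 and 8.95 in effector adults, against 7.08, 7.30 and 7.52 in naive adults. Neither gene overlapped between the groups (1.44 ± 0.19 and 1.39 ± 0.13). Hars, the histidine enzyme, read 7.71, 7.94 and 8.26 in effector adults, against 5.95, 6.62 and 7.07 in naive adults, again without overlap (1.38 ± 0.20, adjusted p = 8.13e-05). Farsb, the beta subunit of the phenylalanine enzyme, rose by 1.13 ± 0.16, and Farsa, its alpha subunit, by 0.76 ± 0.16. The serine enzyme Sars rose by 0.76 ± 0.13.

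Wars, the tryptophan enzyme, is also known as a target of interferon gamma. It read 8.61, 8.73 and 9.19 in effector adults, against 7.24, 8.01 and 8.39 in naive adults, so that the effector arrays lay above all naive arrays (0.87 ± 0.19, adjusted p = 0.00216). The valine enzyme Vars had the smallest difference of the set. It read 7.97, 8.25 and 8.46 in effector adults, against 6.68, 7.85 and 8.12 in naive adults, with overlap (0.58 ± 0.19, adjusted p = 0.0305). The call on Vars was lost in 8 of 25 alternatives, and its difference without naive female 3, the lowest array, was 0.41 (adjusted p = 0.0676). Every effector array lay above every naive array for 16 of the 18 cytosolic genes, all but Farsa and Vars, and for 4 of the 16 mitochondrial genes, against 15.2% of all genes tested.

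**Figure D2:**
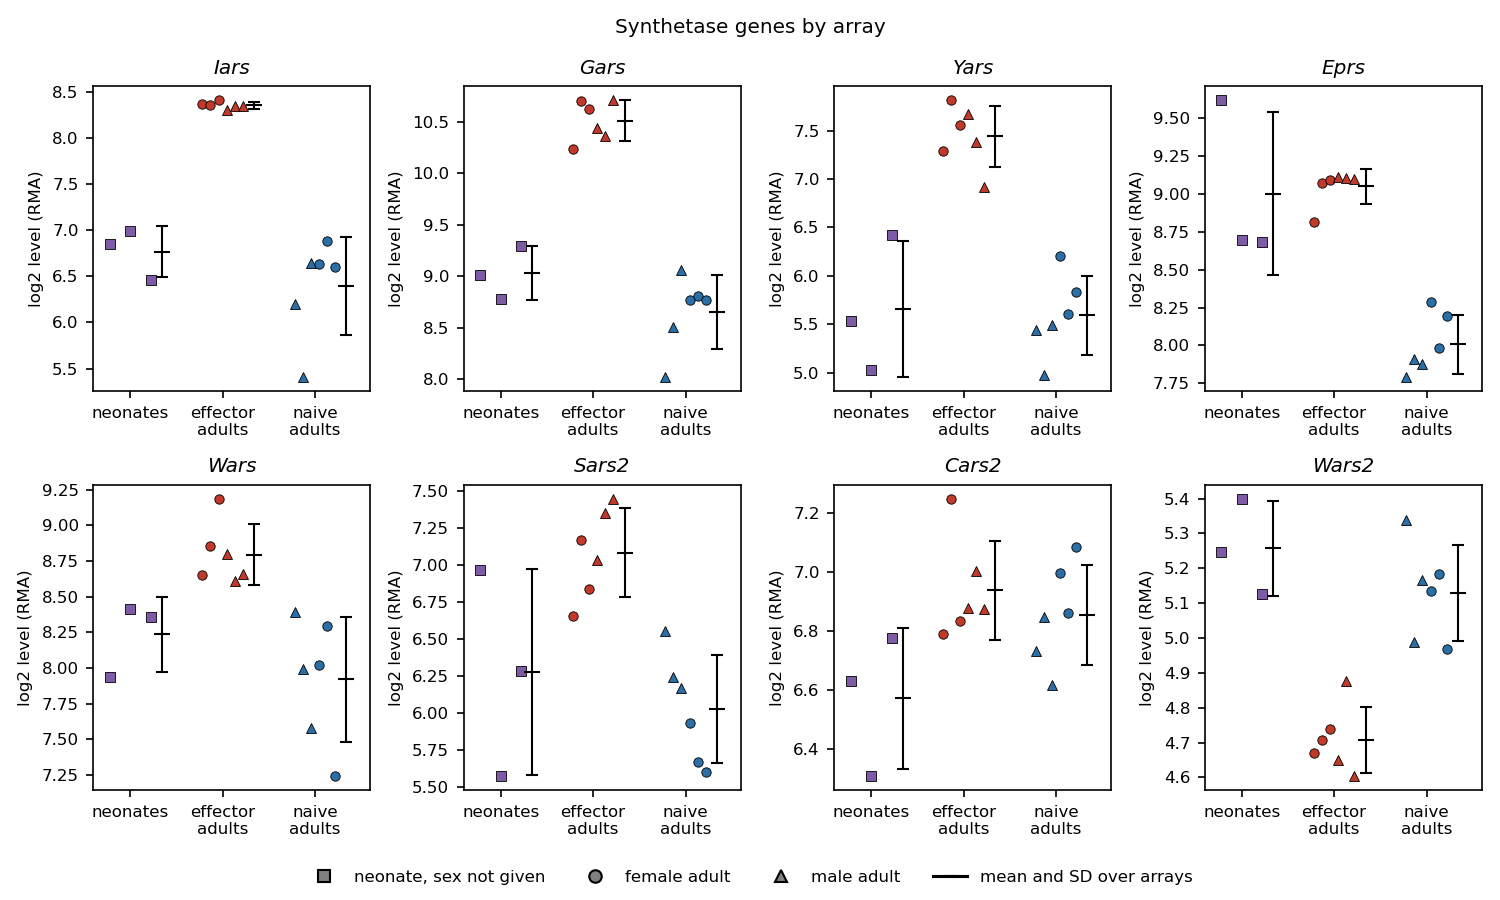
Log2 level of 8 synthetase genes on each array, with neonates, effector adults and naive adults along the x axis. Points are arrays (squares neonates, circles females, triangles males), and bars show the mean and SD over arrays. Iars, Gars and Yars separate effector from naive adults completely, Eprs is high in both neonates and effector adults, Cars2 overlaps between effector and naive adults, and Wars2 is lowest in effector adults.

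RefSeq promoters of mouse build GRCm38.p6, covering 250 bases before to 50 bases after a gene's start, were found for 25 of the 34 members, 11 cytosolic and 14 mitochondrial. They were searched on both strands for the C/EBP-ATF response element TGATGNAA, the composite site that ATF4 is known to bind. It was present in 4 of 11 cytosolic promoters (36.4%) and in 0 of 14 mitochondrial ones, against 4.51% of 27025 genes in the table. The 4 carriers were Iars, Gars, Yars and Tars, at places 1, 2, 3 and 6 of the 18 cytosolic genes by the effector difference. Their differences ran from 1.39 to 1.96, and those of the 7 cytosolic genes without the element from 0.76 to 1.17. Those of the 7 cytosolic genes not in the table, whose promoters were not searched, ran from 0.58 to 1.53. These 7 include Cars, Nars and Hars, at places 4, 5 and 7. Whether the element bears on the size of the rise was not tested. The stretch around the element is shown for the 4 carriers because these genes include the 3 with the largest rise; capitals mark the element and, in Iars, also the E-box CACGTG upstream of it. The stretches are chr13:49682040-49682144 (plus strand) for Iars, chr15:11399659-11399748 (minus strand) for Tars, chr4:129189813-129189913 (plus strand) for Yars and chr6:55037911-55038000 (plus strand) for Gars, each written 5′ to 3′ along its gene.
Iars: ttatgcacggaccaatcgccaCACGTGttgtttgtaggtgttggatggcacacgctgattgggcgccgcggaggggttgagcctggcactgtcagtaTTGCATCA
Tars: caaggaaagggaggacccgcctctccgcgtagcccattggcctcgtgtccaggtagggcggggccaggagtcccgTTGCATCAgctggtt
Yars: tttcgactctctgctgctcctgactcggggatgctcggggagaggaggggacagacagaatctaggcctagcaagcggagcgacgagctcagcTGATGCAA
Gars: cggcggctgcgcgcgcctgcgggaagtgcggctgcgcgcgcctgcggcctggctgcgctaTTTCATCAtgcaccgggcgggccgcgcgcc

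The element runs in the sense direction in Yars and in the reverse direction in Iars, Tars and Gars, where it reads TTGCATCA or TTTCATCA. Counted from the gene's start, it covers bases 8 to 15 in Iars, 4 to 11 in Yars, -15 to -8 in Tars and -30 to -23 in Gars. The E-box CACGTG, which Myc is known to bind, was found in 4 of 25 members (16.0%), against 8.09% of all genes. These were 3 of 11 cytosolic members (Farsb, Iars and Tars) and 1 of 14 mitochondrial ones (Ears2). The gamma-activated site TTCNNNGAA was found in 2 of 25 members (8.0%), Kars and Nars2, no more than the 9.55% of all genes. No promoter was found for Wars, so Wars was not searched for any of these sites. Such matches describe letters in these windows, and a window without them says nothing about the factor.

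The mitochondrial enzymes moved less, and not together. Sars2, the serine enzyme of mitochondria, had the largest rise. It read 6.66, 7.10 and 7.45 in effector adults, against 5.60, 6.05 and 6.55 in naive adults, with no overlap (1.05 ± 0.19, adjusted p = 6.58e-04). Fars2, for phenylalanine, read 8.16, 8.62 and 8.77 in effector adults, against 7.47, 7.85 and 8.08 in naive adults, and also stayed apart (0.71 ± 0.13). Yars2, for tyrosine, read 7.31, 7.52 and 7.67 in effector adults, against 5.96, 6.97 and 7.18 in naive adults. The naive arrays of Yars2 were spread more widely than the effector arrays, without reaching them (0.66 ± 0.17, adjusted p = 0.00819).

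Vars2, for valine, read 6.36, 6.41 and 6.44 in effector adults, against 4.95, 5.86 and 6.24 in naive adults (0.65 ± 0.17, adjusted p = 0.00848), and the effector arrays were all above the naive ones. Iars2 and Rars2, for isoleucine and arginine, were called with overlapping groups, at 0.61 ± 0.19 (adjusted p = 0.0195) and 0.54 ± 0.19 (adjusted p = 0.0409). Iars2 was not called without naive female 3 (0.52, adjusted p = 0.0516) or without effector male 3 (0.54, adjusted p = 0.0546). The call on Rars2 was lost in 11 of 25 alternatives, its difference without naive male 1 being 0.33 (adjusted p = 0.0536). Wars2, which charges tryptophan tRNA in mitochondria, was the single member called lower. It read 4.60, 4.69 and 4.88 in effector adults, against 4.97, 5.15 and 5.34 in naive adults, and no array of one group reached the other (-0.42 ± 0.11, adjusted p = 0.00708). With arrays centred on their own medians Wars2 differed by -0.28 and was no longer called (adjusted p = 0.0572).

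The 9 mitochondrial members that were not called had differences of 0.26 (Nars2), 0.20 (Lars2), 0.20 (Tars2), 0.15 (Hars2), 0.15 (Aars2), 0.08 (Cars2), 0.05 (Pars2), 0.01 (Mars2) and -0.34 (Ears2). These misses do not show equal levels. The 95% interval ran from -0.18 to 0.34 for Cars2 and from -0.28 to 0.30 for Mars2, but from -0.33 to 0.74 for Lars2. Ears2 charges glutamate tRNA in mitochondria and reached an adjusted p of 0.0846; it was called lower without naive female 3, at -0.46 (adjusted p = 0.0115). Nars2 has a second feature, which read 4.39 ± 0.31 in effector adults and 4.67 ± 0.33 in naive adults (SD, n = 6 each), the opposite order to the feature used, with 5.76 ± 0.20 in effector adults and 5.50 ± 0.56 in naive adults.

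Enzymes for the same amino acid could be set side by side in 14 cytosolic and mitochondrial pairs, Fars2 being paired with both Farsa and Farsb. The difference between effector and naive adults was larger for the cytosolic enzyme in 12 pairs and for the mitochondrial one in 2. The widest separations were for cysteine (Cars 1.53, Cars2 0.08) and isoleucine (Iars 1.96, Iars2 0.61). For tryptophan the signs were opposite, Wars being 0.87 higher and Wars2 0.42 lower on the log2 scale. The exceptions were serine (Sars2 1.05, Sars 0.76) and valine (Vars2 0.65, Vars 0.58), and the valine values differed by less than either SE. The contrast within a pair is a description and was not tested.

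**Figure D3:**
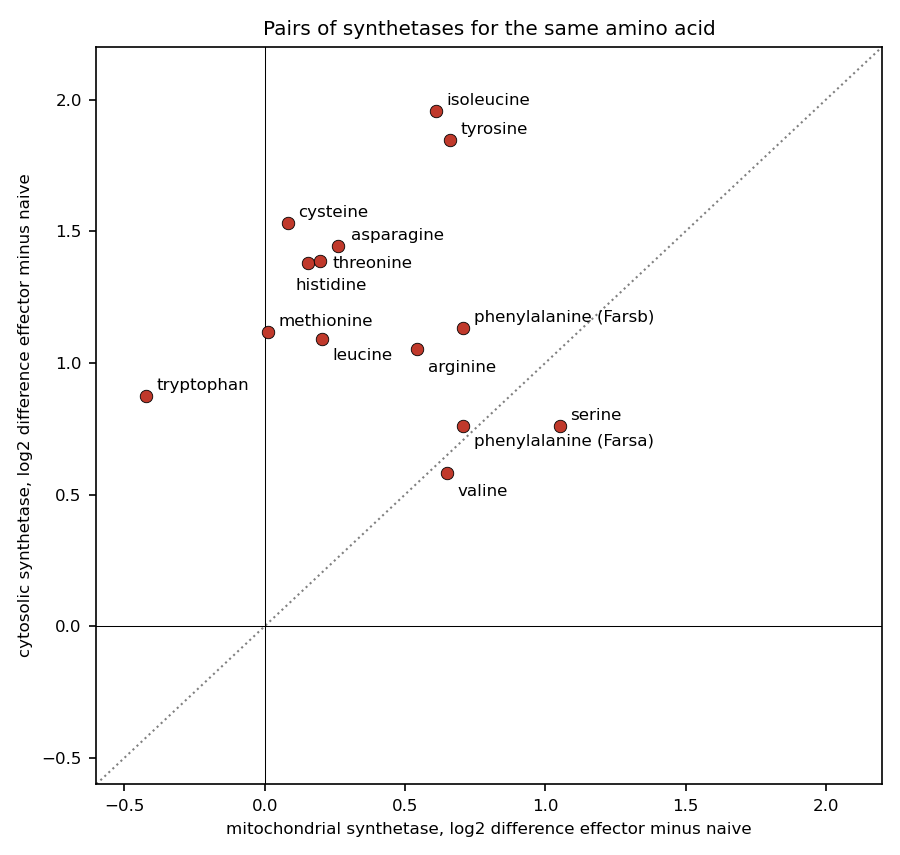
Log2 difference between effector and naive adults of the cytosolic synthetase (y axis) against that of the mitochondrial synthetase for the same amino acid (x axis). Each point is 1 pair, and the dotted line marks equal differences. Of the 14 pairs 12 lie above the line, and serine and valine lie below it.

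Summed up by array, the mean log2 level of the 18 cytosolic genes was 8.58 ± 0.11 in effector adults and 7.36 ± 0.17 in naive adults (SD, n = 6 each). The lowest effector array was at 8.37 and the highest naive array at 7.55. The mean of the 16 mitochondrial genes was 6.25 ± 0.07 in effector adults, with a lowest array of 6.15, and 5.97 ± 0.06 in naive adults, with a highest array of 6.07. The arrays of the groups were thus apart for both sets, by far more in the cytosolic one. The mitochondrial genes also read lower on average than the cytosolic ones in both adult states. Whether the level of a gene bears on the size of its difference was not tested.

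**Figure D4:**
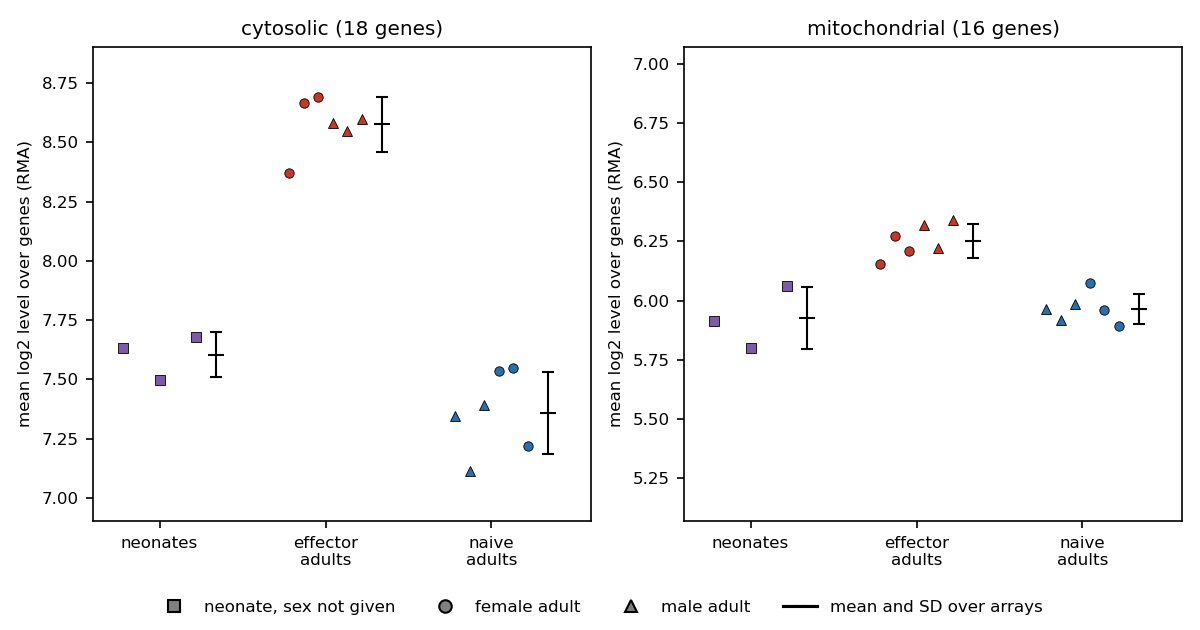
Mean log2 level over the 18 cytosolic (left) and the 16 mitochondrial (right) synthetase genes on each array, for neonates, effector adults and naive adults. Points are arrays (squares neonates, circles females, triangles males), and bars give the mean and SD. Cytosolic means are 8.37 or more in effector adults and 7.68 or less in neonates and naive adults.

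The rise of the cytosolic set was present in both sexes. In females 17 of the 18 cytosolic and 2 of the 16 mitochondrial genes (12.5%) were called higher, against 10.2% of all genes. In males it was 16 cytosolic and 4 mitochondrial genes (25%), against 18.7% of all genes. The mitochondrial shares were not far from those of all genes. Wars2 was called lower in males, as were 6.25% of all genes. Vars missed the threshold in both sexes (0.81 ± 0.28 in females, adjusted p = 0.0650, and 0.36 ± 0.28 in males, adjusted p = 0.377), and Wars missed it in males (0.70 ± 0.27, adjusted p = 0.0662). The test of the difference between the female and the male response called no gene (limma, 0% of 16257, with 866 at an unadjusted p under 0.05) and so no member. Of the 34 members 1 was at an unadjusted p under 0.05, Nars2 (-0.95 ± 0.36, adjusted p = 0.867).

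Few synthetases differed past the threshold between neonatal and naive adult ILC2s. Against the same naive arrays 2 of the 34 members were called higher, Eprs and Rars, none was called lower and 7 were at an unadjusted p under 0.05. That is 5.88% of the members, near the 6.04% of all genes called higher, while 4.12% of all genes were called lower. The median difference was 0.24 for the cytosolic set, -0.10 for the mitochondrial set and 0.02 for all genes. Leaving out 1 array moved the cytosolic median to between 0.15 (without naive female 3; 0.16 without naive male 2) and 0.33 (without naive female 1), and the mitochondrial one to between -0.14 and -0.026 (without naive female 1). For Eprs and Rars every neonatal array lay above every naive array, as for 6.88% of all genes.

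Eprs read 8.68, 8.70 and 9.62 in neonates, against 7.79, 7.95 and 8.29 in naive adults. Replicate 1 of the neonates stood well above the other 2, and all 3 were above every naive array (0.99 ± 0.19, adjusted p = 0.00335). Without that replicate the difference was 0.68 and the gene was still called, as in all 27 alternatives. Rars read 7.86, 7.91 and 8.37 in neonates, against 7.14, 7.53 and 7.83 in naive adults (0.51 ± 0.15, adjusted p = 0.0443). That call was lost in 16 of 27 alternatives, among them the one without neonate 1 (0.35, adjusted p = 0.197). Kars, at 0.52 ± 0.18, missed the threshold (adjusted p = 0.0821).

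The genes that moved most in effector cells had other values in neonates. Iars read 6.46, 6.85 and 6.99 in neonates, a difference from naive adults of 0.37 ± 0.21, and Gars read 8.78, 9.01 and 9.30, a difference of 0.38 ± 0.20. Both overlapped the naive arrays and neither was called. Yars at 5.03, 5.53 and 6.42 differed by 0.07 ± 0.27, Cars at 5.51, 5.65 and 5.66 by -0.20 ± 0.16, and Tars at 7.12, 7.26 and 7.79 by 0.08 ± 0.16. Nars at 8.82, 8.98 and 9.13 differed by 0.50 ± 0.23 (adjusted p = 0.185).

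Set against effector adults, neonates had lower levels of 14 of the 18 cytosolic and 4 of the 16 mitochondrial enzymes, where 14.7% of all genes were called lower. The mitochondrial count rested on single arrays: it was 0 without neonate 2, 1 without effector female 2 or effector male 3, and 2 without neonate 1, neonate 3 or effector male 1. Without neonate 1 the 2 included Nars2, and without neonate 3 they included Hars2, neither of them called with all arrays. The mitochondrial count was also 0 after a further quantile normalization and 1 with array weights. Wars2 was the one member called higher, where 5.93% of all genes were. The median difference was -0.96 for the cytosolic and -0.33 for the mitochondrial set, against -0.03 for all genes. The largest differences were those of Yars (-1.78 ± 0.27), Cars (-1.73 ± 0.16), Iars (-1.59 ± 0.21), Gars (-1.48 ± 0.20) and Tars (-1.31 ± 0.16). The cytosolic genes not called were Eprs (-0.05 ± 0.19), Vars (-0.51 ± 0.24), Qars (-0.53 ± 0.18) and Wars (-0.56 ± 0.23). The 95% interval for Eprs was -0.44 to 0.35, whereas that for Qars was -0.92 to -0.14.

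Among the mitochondrial genes Yars2 read 6.47, 6.56 and 7.02 in neonates, below every effector array (-0.81 ± 0.21, adjusted p = 0.0143). Sars2 varied most, at 5.58, 6.29 and 6.96, and overlapped the effector arrays (-0.81 ± 0.24, adjusted p = 0.0261). Without neonate 2, its lowest array, Sars2 differed by -0.46 and was not called (adjusted p = 0.175). Rars2 read 5.57, 5.77 and 5.85, below all effector arrays (-0.78 ± 0.24, adjusted p = 0.0304), and Fars2 was lower by a smaller amount (-0.50 ± 0.16, adjusted p = 0.0374). Of 27 alternatives the call held in 22 for Yars2, 19 for Sars2, 16 for Rars2 and 14 for Fars2; the replicate block was among those that lost Fars2 (adjusted p = 0.0531). Wars2 read 5.13, 5.25 and 5.40, above every effector array (0.55 ± 0.13, adjusted p = 0.00926). The neonatal mean lay between the effector and the naive mean for 16 of the 18 cytosolic genes and below both for Cars and Sars. Of the mitochondrial genes it lay between for 4, below both for 10 and above both for 2. A mean falls between more readily where the effector and naive means are far apart, as they were in the cytosolic set. The share over all genes was not counted. The comparisons of neonates with effector and with naive adults share the neonatal arrays, and those with naive adults share the naive arrays. The comparisons of effector adults with naive adults and with neonates share the effector arrays. The values of these comparisons are therefore not independent.

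**Figure D5:**
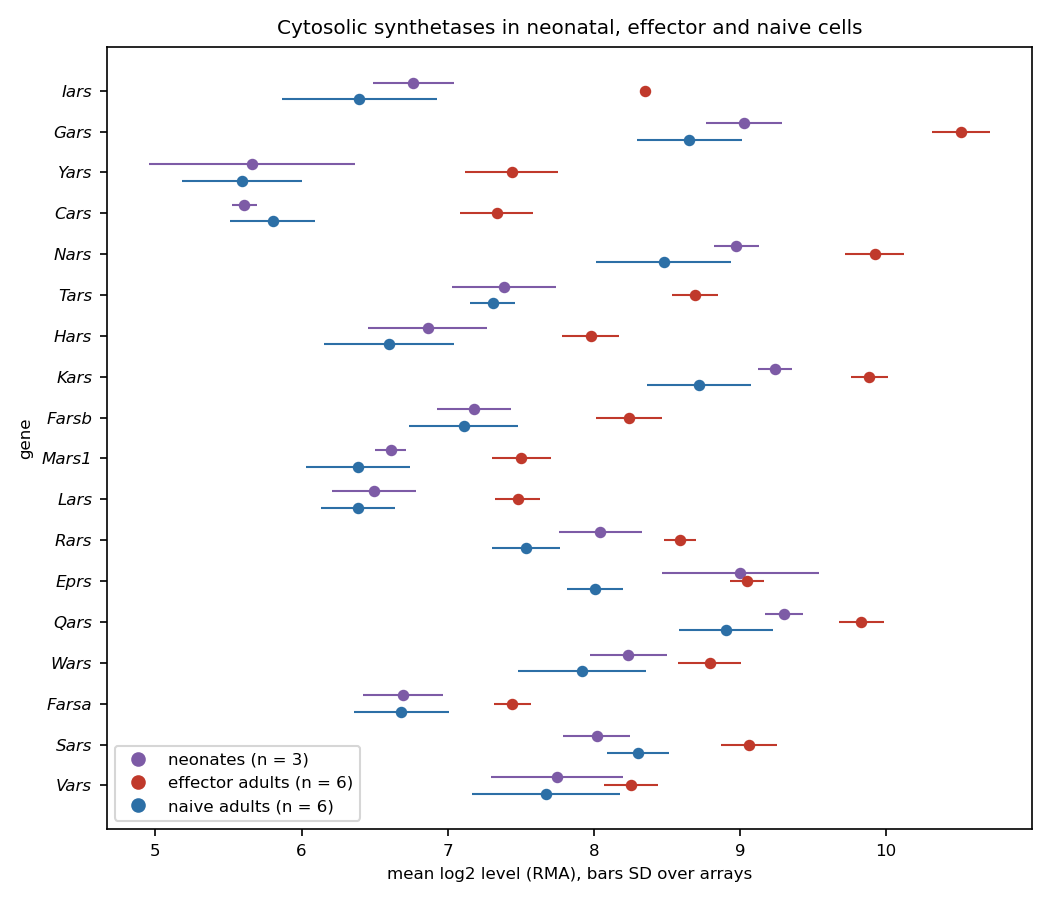
Mean log2 level (x axis) of each of the 18 cytosolic synthetase genes in neonates, effector adults and naive adults, with SD over 3, 6 and 6 arrays as bars. Levels are read within a row, since different features are not on one scale. Effector means lie to the right of naive means in all 18 rows, and Eprs is the row where the neonatal mean comes nearest to the effector mean (difference -0.05).

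Other genes of tRNA charging and translation were called higher in part between effector and naive adults, where 23.7% of all genes were. Of 21 genes of tRNA synthesis, maturation and export tested, 10 were higher and none lower, with a median of 0.40. Xpot, the exportin that carries tRNA out of the nucleus, led with 1.78 ± 0.20 (adjusted p = 8.94e-06), followed by the splicing endonuclease subunit Tsen54 at 0.78, the RNA polymerase III subunit Polr3k at 0.73 and the RNA kinase Clp1 at 0.65. Of 9 mitochondrial translation factors 6 were higher and none lower, with a median of 0.52, among them Mtrf1 (1.30), Gfm1 (1.03), Tufm (0.87) and Tsfm (0.77). Of 7 cytosolic elongation factors 3 were higher, Eef2 (0.57), Eif5a (0.55) and Eef1g (0.37), and Eef1a1, which delivers charged tRNA to the ribosome, differed by -0.01 ± 0.09. Among 9 relatives and helpers of the synthetases 2 were called higher, Tarsl2 (0.61) and Mtfmt (0.56), a share near the 23.7% of all genes. Relative to naive adults, neonates had 1 of the 21 tRNA genes higher, Xpot (0.89 ± 0.25, adjusted p = 0.0340), and 1 of the 7 elongation factors, Eef2 (0.57 ± 0.14), while 1 of the 9 mitochondrial translation factors was lower, Gfm2 (-0.58 ± 0.17, adjusted p = 0.0456). Beside the 6.04% of all genes called higher and the 4.12% called lower, 1 gene is no result about these lists.

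Of 29 amino acid response genes tested 21 were higher in effector adults and 3 lower, with a median of 0.98. Of all genes tested 23.7% were called higher and 10.9% lower. Slc7a5, a transporter of large neutral amino acids, read 9.19, 9.27 and 9.98 in effector adults, against 5.64, 6.12 and 7.23 in naive adults (3.11 ± 0.25, adjusted p = 1.98e-07). Asns, which makes asparagine, read 7.72, 7.75 and 8.02 in effector adults, against 4.57, 4.74 and 5.81 in naive adults (2.85 ± 0.18, adjusted p = 1.59e-08). The serine and one-carbon enzymes Mthfd2 (2.66) and Shmt2 (2.26) followed. Atf4 itself read 10.06, 10.22 and 10.35 in effector adults, against 9.98, 10.01 and 10.29 in naive adults, and was not called (0.15 ± 0.10, adjusted p = 0.292). Ddit3, another transcription factor of the response, was called at 0.55 ± 0.17. The lower genes were Ppp1r15a (-1.37), Stc2 (-1.23) and Cebpb (-0.51). The list holds no synthetase.

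In neonates 4 of the 29 amino acid response genes were higher than in naive adults and 1 was lower, with a median of 0.13. Of all genes 6.04% were called higher and 4.12% lower, so 1 lower gene is no result about this list. Slc7a5 read 9.03, 9.50 and 9.51 in neonates, above every naive array (3.05 ± 0.30, adjusted p = 1.86e-05), and Slc7a1, a transporter of arginine and lysine, was 1.74 ± 0.23 higher. The others were Sesn2 (1.34) and Psat1 (0.97), with Ddit4 lower (-0.89). Asns read 4.79, 4.89 and 5.54 in neonates and was not called (0.13 ± 0.22, adjusted p = 0.761). Set against effector adults Asns differed by -2.72 ± 0.22, whereas Slc7a5 differed by -0.05 ± 0.30 without being called.

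Cell division genes rose in both states. Of all genes, 23.7% were called higher and 10.9% lower in effector adults, and 6.04% and 4.12% in neonates, both relative to naive adults. All 14 proliferation genes tested were higher in effector than in naive adults, with a median of 3.46, and 12 of 14 were higher in neonates than in naive adults, with a median of 2.16. Mki67, a marker of cycling cells, was 4.87 ± 0.22 higher in effector adults and 3.96 ± 0.27 higher in neonates, each relative to naive adults. Myc was called in effector adults (0.74 ± 0.19, adjusted p = 0.00785) and not in neonates (0.56 ± 0.24, adjusted p = 0.152). Interferon response genes, listed because of Wars, were higher for 16 of 20 in effector adults, with a median of 1.12, led by Usp18 (2.16), Gbp3 (2.10), Igtp (2.00) and Bst2 (1.83). In neonates none of the 20 was higher than in naive adults and 2 were lower, Iigp1 (-1.41) and Psmb10 (-0.46). Of 6 genes for eIF2 alpha kinases and phosphatase subunits 4 were higher in effector adults and 1, Ppp1r15a, was lower; Eif2ak2, an interferon-induced kinase, differed by 2.02, Eif2ak1 by 0.79, Eif2ak3 by 0.73 and Eif2ak4, the kinase Gcn2, by 0.53.

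Part of the marker lists of other cells moved with the groups. Of all genes tested 23.7% were called higher and 10.9% lower in effector than in naive adults. The summed linear level of 10 T cell markers was 1657 to 2172 in effector adults and 3356 to 3820 in naive adults, with 4 of 10 called lower, namely Lat (-1.57), Bcl11b (-0.68), Cd3g (-0.58) and Cd8b1 (-0.56); none of the 10 was in the background range in effector adults, and Cd8a was in naive adults. Of 7 B cell markers measured the sum was 269 to 498 in effector adults and 1009 to 1321 in naive adults, with Ms4a1 in the background range in both and Cd79a in naive adults; of the 5 tested, Cd79b was called higher (1.00) and Ighm lower (-2.19). The sum of 9 NK and ILC1 markers was 1346 to 2230 in effector adults and 530 to 936 in naive adults, with Eomes in the background range in both and Ncr1, Gzma and Gzmb in naive adults. Of the 7 tested, Il2rb (1.56) and Gzmb (1.01) were called higher and Klrb1c (-0.63) and Klrd1 (-0.61) lower, with a median of 0.06. For 8 mast cell and basophil markers it was 2920 to 3378 in neonates, 1060 to 1152 in effector adults and 1313 to 2193 in naive adults, with Mcpt4 and Fcer1a in the background range in all. Of 10 endothelial markers tested 5 were lower in effector than in naive adults, and the sum over the 11 measured was 418 to 467 in effector adults and 309 to 594 in naive adults. The sums of epithelial, macrophage and dendritic cell, fibroblast and neutrophil markers overlapped between effector and naive adults, as did the endothelial sums. None of the 11 epithelial markers tested was called there. In neonates the sums were 2586 to 3327 for T cell, 540 to 908 for B cell and 1093 to 2387 for NK and ILC1 markers. Cd79a, Ms4a1 and Eomes were in the background range in neonates. The sum of 9 fibroblast markers was 236 to 260 in neonates, 171 to 207 in effector adults and 165 to 198 in naive adults. Dcn and Lum were in the background range in all, and Pdgfra in naive adults. Against effector adults 3 of 6 fibroblast and 3 of 6 mast cell and basophil markers were called higher in neonates, beside 5.93% of all genes. Against naive adults it was 1 and 3, beside 6.04%. The part of other cells in the synthetase values was not tested.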

How the data were processed

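Log2 expression values, 1 per array feature, were used as the authors deposited them. RMA in Affymetrix Expression Console made them, per the submitters' processing notes; versions and settings are not given in these sources. Of 41345 features 23521 had exactly 1 gene symbol in the platform annotation, 1814 had several and 16010 had none.

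A means model over 5 groups of 3 arrays was fitted with limma 3.58.1 in R 4.3.3 (lmFit and eBayes, two-sided, 10 residual and 5.05 prior degrees of freedom). Adult groups were averaged over both sexes with equal weight, and p-values were adjusted by the Benjamini-Hochberg method over 16257 genes. Precision is limited by how many arrays there are. The script was tested on simulated data. Some items are not reported here. The members and gene lists were chosen with earlier results of these data known. Values by array are given for the 8 members with the largest effector differences, for called mitochondrial members (up to 4 a comparison), for members called between neonates and naive adults, and for Wars, Eprs, Gars and Kars; of other lists up to 4 called genes are named, and Atf4, Ddit3, Asns, Slc7a5, Myc, Mki67, Gata3 and Il13. Genes outside this rule are named where a count is 5 or fewer or a range is described, chosen after their values were seen.

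Replicate numbers recur in every group. Over 30 pairs of arrays with the same number in different groups the correlation of deviations from the group means was -0.11 to 0.10 and none was over 0.1, so the numbers were not taken to pair arrays. Alternatives changed the dim filter, the array scaling, the prior, array weights, the arrays in the fit, the handling of several features and the arrays left out.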

Additional observations from a re-analysis of the deposited data

How the results depend on the processing

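The 18 cytosolic calls between effector and naive adults were stable apart from Vars, which was lost in 8 of 25 alternatives; 20 of the 34 members were called in every alternative and 6 in none. Leaving out 1 array at a time gave 23 to 25 called members, and requiring a 2-fold change left 14 of 25. The cytosolic median was 1.07 to 1.18 with 1 array left out and 0.95 after a further quantile normalization; the mitochondrial median was 0.34 after centring each array on its median. Centring moved the median of all genes between effector and naive adults from 0.03 to 0.17 and the share of calls that were higher from 68.5% to 83.0% (females 73.1% to 83.9%, males 74.9% to 86.8%, neonates against effector adults 28.8% to 16.4%), and added Aars2 (0.29) and Tars2 (0.33) to the higher members.

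Between neonates and naive adults the 2 called members became 1 without the dim filter, with array weights, with only the arrays compared and against adult females alone, 0 at a 2-fold change, 1 to 2 with 1 array left out and 5 without the 3 arrays least correlated with their group, where the cytosolic median was 0.44. The mitochondrial median against adult males alone was -0.0050. Between neonates and effector adults 8 of 19 calls were 2-fold, calls ranged from 13 to 20 with 1 array left out, and the mitochondrial median was -0.44 after centring, -0.18 after quantile normalization and -0.46 to -0.27 with 1 array left out. At a 2-fold change 11 of 19 calls in females and 13 of 21 in males were kept. With the replicate number as a block the counts were 25 between effector and naive adults and 1 between neonates and naive adults. The cause of these shifts was not tested.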
